A study of Schizosaccharomyces pombe with 24 samples.

Results

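Glycolysis turns glucose into pyruvate, and in fermenting yeast most of that pyruvate is decarboxylated to acetaldehyde and reduced to ethanol. Several of its steps are served in fission yeast, Schizosaccharomyces pombe, by more than 1 gene, so that an abundant enzyme stands beside a minor isozyme of the same reaction. The genes described here are those that the deposited annotation places in the glycolysis and gluconeogenesis pathway, ko00010, with the gluconeogenic fructose-1,6-bisphosphatase gene fbp1 left out. They number 31 of the 5195 genes in the tables. Another gene meant to be left out, gal10, does not carry that pathway in the tables, so nothing further was removed.

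The study measured poly(A) RNA in cultures of haploid fission yeast strains that each carry an amino acid change in histone H2B, encoded by the single gene htb1. The changes are modelled on mutations found in human cancers. The groups were htb1-E112K, htb1-D67N, htb1-E75Q, htb1-P102L, htb1-G52D and htb1-E34K, then a strain whose title reads as a set1 deletion, written set1Δ here, and the wild type (WT), with 3 libraries each, 24 in all. The study's strain list gives leu1-32 and ura4-D18 for WT, the H2B mutants and a set1Δ strain, so these alleles are shared as listed. The htb1-E75Q, htb1-D67N, htb1-E112K and htb1-E34K alleles carry the kanMX6 marker and sit in h+ cells like WT, while htb1-G52D and htb1-P102L are listed without the marker and as h-. The listed ade6 allele is ade6-M216 in WT and ade6-M210 in these 4 mutants, and is left unspecified in htb1-G52D and htb1-P102L. The set1Δ strain with a listed genotype carries kanMX6 and no ade6 allele, and whether it is the one sequenced was not established. As listed, the marker, mating type and ade6 allele cannot be told apart from the mutation. Counts of a mating-type gene, given below, differed between libraries of a group. Whether a genotype was grown from 1 clone or several is not stated, and the libraries were described as independent biological repeats.

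The libraries held 18935513 to 28181070 counts. Depth therefore limits only the weakest members, and 30 of the 31 passed the low-count filter in each comparison with WT, except that all 31 passed in htb1-E112K. Htb1 itself held 88025 to 197540 counts in htb1-E112K, 212546 to 238225 in htb1-D67N and 111586 to 201136 in htb1-E75Q. The other libraries held 14377 to 43714. Its part in the changes of the members was not tested. The labels and the marker genes did not agree everywhere. The libraries labelled set1Δ held 336 to 412 set1 counts, against 20 to 32 in WT, where a deletion would give none, so set1Δ below stands only for the libraries that carry this label. WT replicate 3 held 865 ura4 counts, htb1-G52D replicate 1 held 1382 and htb1-P102L replicate 1 held 712, against 0 to 2 in every other library. The counts in these 3 libraries go against the ura4-D18 allele listed for their strains. The counts of called members are therefore also given without these libraries below.

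A gene is called higher or lower where its Benjamini-Hochberg adjusted p in edgeR's quasi-likelihood test was below 0.05 over all genes tested and its level differed at least 2-fold. Fold changes are on the log2 scale, mutant over WT, with their standard error (SE). Counts were scaled by TMM, which aligns libraries on the bulk of their genes, and levels are given as CPM, counts brought to a common library size, on that scale over all 24 libraries. CPM compares libraries for 1 gene, and FPKM, which divides by transcript length, compares genes.

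The pathway's transcripts were among the most abundant of these cells. By mean FPKM over the 24 libraries, the glyceraldehyde-3-phosphate dehydrogenase gene tdh1 ranked 1 of all genes at 23100 FPKM, followed by aldolase fba1 at rank 2 and phosphoglycerate mutase gpm1 at rank 3. The 31 genes together took 17.3% to 21.5% of all counts in htb1-E112K, 17.7% to 20.3% in htb1-D67N, 17.3% to 21.2% in htb1-E75Q, 13.6% to 16.5% in htb1-P102L, 16.2% to 19.8% in htb1-G52D, 12.6% to 17.0% in htb1-E34K and 15.6% to 16.9% in set1Δ, against 14.9%, 19.5% and 19.5% in WT. All 7 ranges overlapped that of WT, but the lowest WT share was that of replicate 3, which holds ura4 counts. Without it the 9 libraries of htb1-P102L, htb1-E34K and set1Δ all lay below WT.

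The calls of a higher level fell outside the most abundant members. The enolase gene eno102, the pyruvate decarboxylase gene pdc201, the glyceraldehyde-3-phosphate dehydrogenase gene gpd3, the aldehyde dehydrogenase gene atd1 and the alcohol dehydrogenase gene SPAC26F1.07 supplied all 22 such calls among the 30 members tested in every comparison. Gpd3 ranks 10 among the members by mean FPKM, and none of the 9 above it was called higher in any mutant. Atd1 and SPAC26F1.07 share their orthology number with no other member. Of the 30 members, 8 were called in at least 1 comparison and 22 in none. The lactate dehydrogenase gene SPAC186.08c passed the filter only through htb1-E112K, where it is high, so its test is not counted here and its read counts are given below.

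The called share of the members is set beside that of all genes tested in the same comparison. For htb1-G52D, 5 of 30 tested members were called higher, beside 13.4% of all genes, and 2 lower, beside 8.07%. Together these are 23.3% of the members, beside 21.5% of all genes. For htb1-P102L 4 members were higher (all genes 9.93%) and 0 lower (3.48%), 13.3% in all beside 13.4%. For htb1-E75Q 4 were higher (all genes 13.0%) and 1 lower (8.48%), 16.7% in all beside 21.5%. These 3 shares lie near or under those of all genes.

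For htb1-D67N 5 members were higher (all genes 10.8%) and 1 lower (4.48%), beside 15.3% called in either direction. For htb1-E112K 3 were higher (all genes 7.96%) and 1 lower (2.34%), 13.3% in all beside 10.3%. Among the libraries labelled set1Δ 1 member was higher (all genes 5.16%) and 0 lower (1.30%), 3.33% in all beside 6.46%. For htb1-E34K edgeR called 0 members, beside 0.103% of all genes. There 3 members had an unadjusted p below 0.05 in edgeR. The share of all genes at that limit is not given here, so nothing is read from this count. DESeq2 called 0, beside 2.61% of all genes, and limma on log2(FPKM + 1) called 1, gpd3, beside 2.53%.

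Without WT replicate 3, 5 members were called higher and 1 lower in htb1-D67N, beside 10.4% and 5.16% of all genes, and 4 and 1 in htb1-E75Q, beside 11.6% and 7.70%. In htb1-E112K the calls were those made with it, 3 and 1, beside 7.98% and 2.72%. The libraries labelled set1Δ then had 2 higher and 0 lower, beside 5.36% and 1.78%, and htb1-E34K had 0, beside 0.183% in either direction. Without both WT replicate 3 and htb1-G52D replicate 1, 5 were higher and 1 lower in htb1-G52D, beside 12.7% and 8.11%. Of its 7 calls only that of pfk1 was lost there, at -0.93, and gpd3 stood at 2.79, eno102 at 2.55, atd1 at 2.12, pdc201 at 1.84, SPAC26F1.07 at 1.43 and pdc101 at -1.18.

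**Figure D1:**
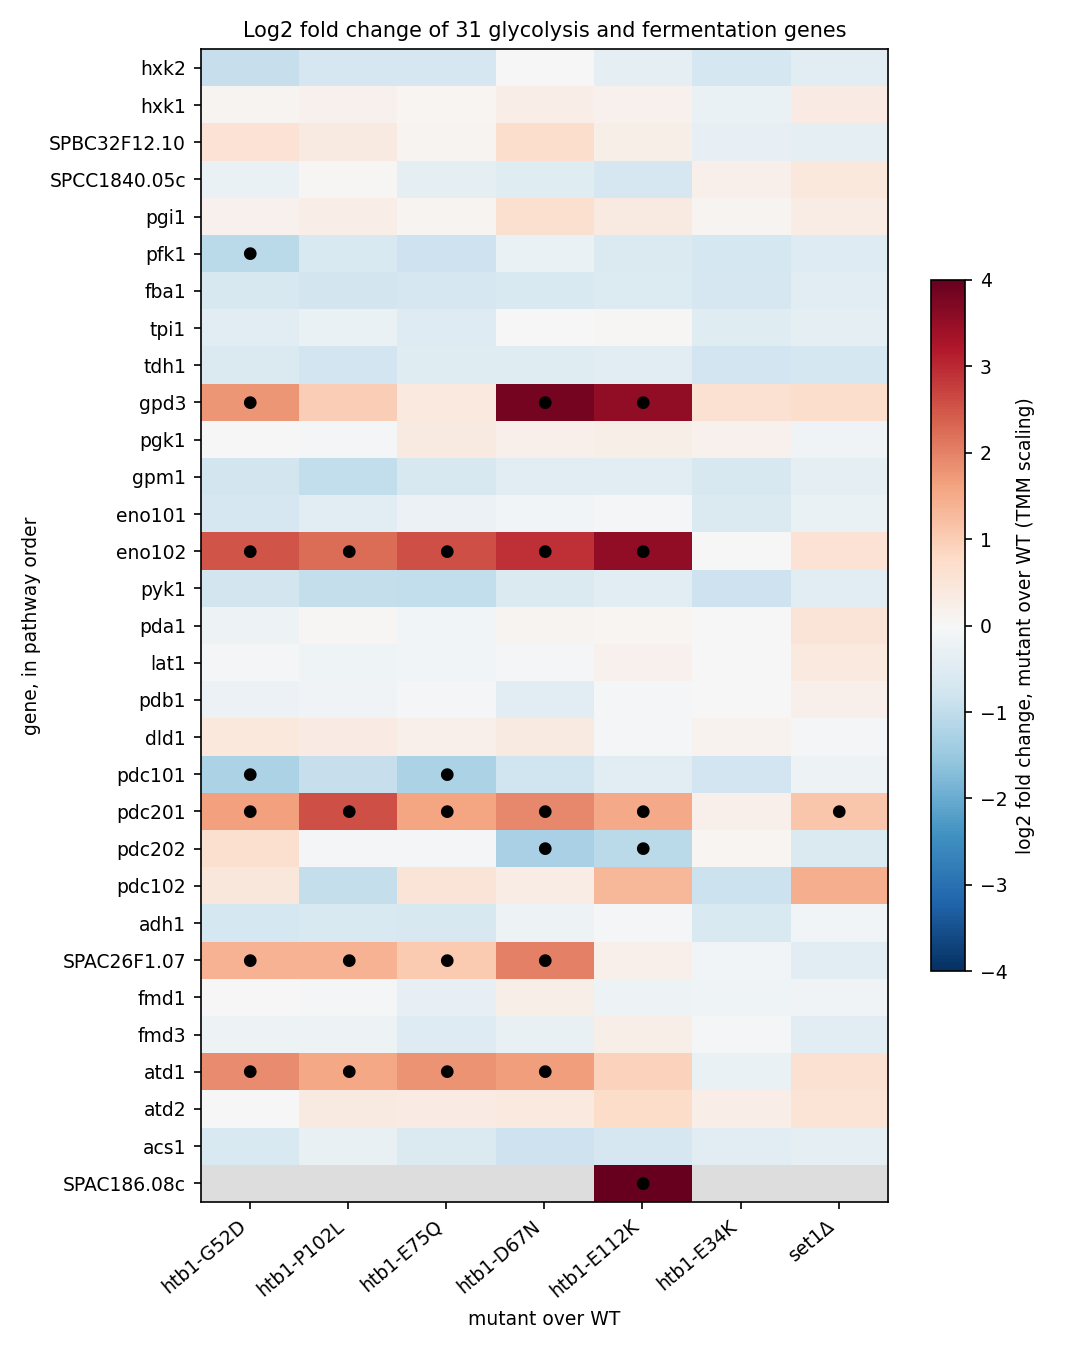
Log2 fold change of each of the 31 genes (rows, in pathway order) in each mutant over WT (columns), from the TMM-scaled edgeR fits; black dots mark calls and grey marks genes not tested. Reds are concentrated in the rows of eno102, pdc201, gpd3, SPAC26F1.07 and atd1, the htb1-E34K column holds no dot, and the dot of SPAC186.08c in htb1-E112K is of the gene that passed the filter only there.

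The first steps bring glucose to fructose bisphosphate. The 2 hexokinase genes hxk2 and hxk1, which phosphorylate glucose, the phosphoglucomutase genes SPBC32F12.10 and SPCC1840.05c, which link glycolysis to glycogen and sugar nucleotides, and the isomerase gene pgi1 were called in no comparison. Their log2 fold changes lay between -0.91 (hxk2 in htb1-G52D) and 0.70 (SPBC32F12.10 in htb1-D67N). Hxk2 in htb1-G52D was called lower without WT replicate 3 (-1.06), htb1-G52D replicate 2 (-1.065) or htb1-G52D replicate 3 (-1.02). With counts scaled by the library total, SPBC32F12.10 was called higher in htb1-G52D (1.20) and htb1-D67N (1.08), and pgi1 in htb1-D67N (1.02). Limma on log2(FPKM + 1) made these calls too. SPCC1840.05c was called lower in htb1-E112K without its replicate 1 (-1.08). SPCC1840.05c lies on the opposite strand to pca1 over 73.6% of its length in the RefSeq assembly ASM294v3, and since the strand used in counting is not stated its reads are uncertain.

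Phosphofructokinase, which commits sugar to glycolysis, is encoded by pfk1. It had 2689.5, 3809.9 and 3114 CPM in htb1-E112K, 4261, 4094 and 3242 in htb1-D67N, 2867, 1596 and 3657 in htb1-E75Q, 4134, 2691 and 2434 in htb1-P102L, 1784, 2798 and 2358 in htb1-G52D, 2205, 2339 and 4193 in htb1-E34K, 2919, 3215 and 3505 in set1Δ, against 4826, 5007 and 4706 in WT. Every mutant library lay below the lowest WT library. The fall passed the test and the 2-fold limit only in htb1-G52D, by 1.066 on the log2 scale (SE 0.24, adjusted p = 0.00612 in edgeR). In set1Δ the difference was -0.53 (SE 0.12, adjusted p = 0.00892), under 2-fold. The htb1-G52D call was lost with total-count scaling, at -0.45, and without htb1-G52D replicate 1, at -0.91.

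The lower part of glycolysis is carried by aldolase (fba1), triose-phosphate isomerase (tpi1), glyceraldehyde-3-phosphate dehydrogenase (tdh1), phosphoglycerate kinase (pgk1), phosphoglycerate mutase (gpm1), enolase (eno101) and pyruvate kinase (pyk1). These, with pdc101 and adh1, are 9 of the 10 members with the highest mean FPKM. Fba1, which splits fructose bisphosphate, had 15755, 29756 and 22802 CPM in htb1-E112K, 26491, 24766 and 13248 in htb1-D67N, 18973, 14602 and 31416 in htb1-E75Q, 27236, 18452 and 15614 in htb1-P102L, 15488, 27003 and 23670.0 in htb1-G52D, 15995, 15400.0 and 31255 in htb1-E34K, 20909, 23789 and 27420.0 in set1Δ, against 40026, 39974 and 23301 in WT. Tpi1, which interconverts the triose phosphates, had 9389, 18981 and 14207 CPM in htb1-E112K, 16550.0, 14942 and 8795 in htb1-D67N, 9209, 6736 and 13705 in htb1-E75Q, 15797, 9842 and 8744 in htb1-P102L, 7308, 13850.0 and 10824 in htb1-G52D, 8008, 7753 and 13748 in htb1-E34K, 9649.8, 10089 and 11035 in set1Δ, against 15508, 15211 and 11759 in WT. In both, the third WT library lay below the first and second. Tdh1, the main glyceraldehyde-3-phosphate dehydrogenase gene, had 25168, 52338 and 37773 CPM in htb1-E112K, 45560.0, 39828 and 22251 in htb1-D67N, 27585, 26639 and 58736 in htb1-E75Q, 42597, 25625 and 22086 in htb1-P102L, 23944, 43618 and 38188 in htb1-G52D, 25981, 19706 and 44423 in htb1-E34K, 27083, 29458 and 36584 in set1Δ, against 60644, 63283 and 33352 in WT. Pgk1, which makes ATP from bisphosphoglycerate, had 12017, 21556 and 15862 CPM in htb1-E112K, 19388, 16408 and 11190.0 in htb1-D67N, 15548, 13088 and 27066 in htb1-E75Q, 18061, 12522 and 10000.0 in htb1-P102L, 8991, 19000.0 and 15963 in htb1-G52D, 11137, 11918 and 24140.0 in htb1-E34K, 11329, 12766 and 13462 in set1Δ, against 16166, 18839 and 8088 in WT. For pgk1 all mutant libraries lay above WT replicate 3 and most lay below the highest WT library. Gpm1 had 9292, 17871 and 12877 CPM in htb1-E112K, 16330.0, 14045 and 8918 in htb1-D67N, 11241, 7393 and 16664 in htb1-E75Q, 12141, 7988 and 6772 in htb1-P102L, 6459, 14347 and 12140.0 in htb1-G52D, 9038, 8324 and 16998 in htb1-E34K, 12455, 12848 and 14133 in set1Δ, against 20741, 20762 and 13145 in WT. Eno101, the main enolase gene, had 14390.0, 27543 and 21518 CPM in htb1-E112K, 24902, 21660.0 and 13908 in htb1-D67N, 16698, 12598 and 28440.0 in htb1-E75Q, 21124, 14709 and 12659 in htb1-P102L, 8813, 17796 and 16151 in htb1-G52D, 11259, 10357 and 22544 in htb1-E34K, 16010.0, 18050.0 and 19791 in set1Δ, against 23489, 28731 and 15549 in WT. For gpm1 and eno101 the mutant libraries fell on both sides of WT replicate 3. Pyk1, which makes the pyruvate, had 13897, 25374 and 18052 CPM in htb1-E112K, 20065, 19336 and 11668 in htb1-D67N, 12992, 8444 and 18969 in htb1-E75Q, 19617, 11201 and 9837 in htb1-P102L, 11417, 20281 and 16256 in htb1-G52D, 11966, 11085 and 20470.0 in htb1-E34K, 16642, 18609 and 20139 in set1Δ, against 31081, 27302 and 21338 in WT. Adh1, the main alcohol dehydrogenase gene that reduces acetaldehyde to ethanol, had 18079, 29492 and 22577 CPM in htb1-E112K, 25004, 22521 and 15767 in htb1-D67N, 16524, 10848 and 22168 in htb1-E75Q, 21315, 15124 and 12653 in htb1-P102L, 9131, 21094 and 17271 in htb1-G52D, 12735, 12303 and 23642 in htb1-E34K, 20004, 21954 and 25380.0 in set1Δ, against 30373, 28054 and 18244 in WT. No one of these 8 genes was called in any comparison. Gpm1 in htb1-P102L lay at the 2-fold limit, at -0.99 (adjusted p = 0.0207), and was called there with DESeq2 (-1.03), with the replicate number as a block (-1.01) and in the 24-library fit (-1.02). Pyk1 in htb1-E75Q, at -0.98, was called with DESeq2 (-1.01).

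The 8 genes and pdc101 leaned below WT under TMM. Their median log2 fold change was -0.41 in htb1-E112K, -0.41 in htb1-D67N, -0.63 in htb1-E75Q, -0.72 in htb1-P102L, -0.66 in htb1-G52D, -0.63 in htb1-E34K and -0.40 in set1Δ. With counts scaled by the library total instead, these medians were -0.08, -0.05, -0.05, -0.38, -0.04, -0.29 and -0.17 in the same order. The median of all genes moved up under that scaling by 0.21 (set1Δ) to 0.67 (htb1-G52D), so the size of the difference depends on the scaling, while the 7 medians were below 0 under both. The 100 genes with the most counts in a library took 61.9% to 65.4% of its counts in WT. They took 53.8% to 59.0% in htb1-G52D and 54.7% to 60.8% in htb1-E75Q, while the ranges of the other mutants overlapped that of WT. Whether the lean was particular to the members among abundant genes was not tested. With total-count scaling 5 to 8 of the 9 genes were below 0 in each mutant. In htb1-P102L gpm1 then stood at -0.66 (adjusted p = 4.53e-07), under 2-fold. In htb1-P102L the lean also depended on the libraries with ura4 counts. Without htb1-P102L replicate 1 and WT replicate 3, 11 members were called in that mutant, 5 higher and 6 lower, beside 10.2% and 4.30% of all genes in the same fit. The 6 lower were gpm1 (-1.47), pyk1 (-1.45), tdh1 (-1.36), pdc101 (-1.29), fba1 (-1.21) and adh1 (-1.05).

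**Figure D2:**
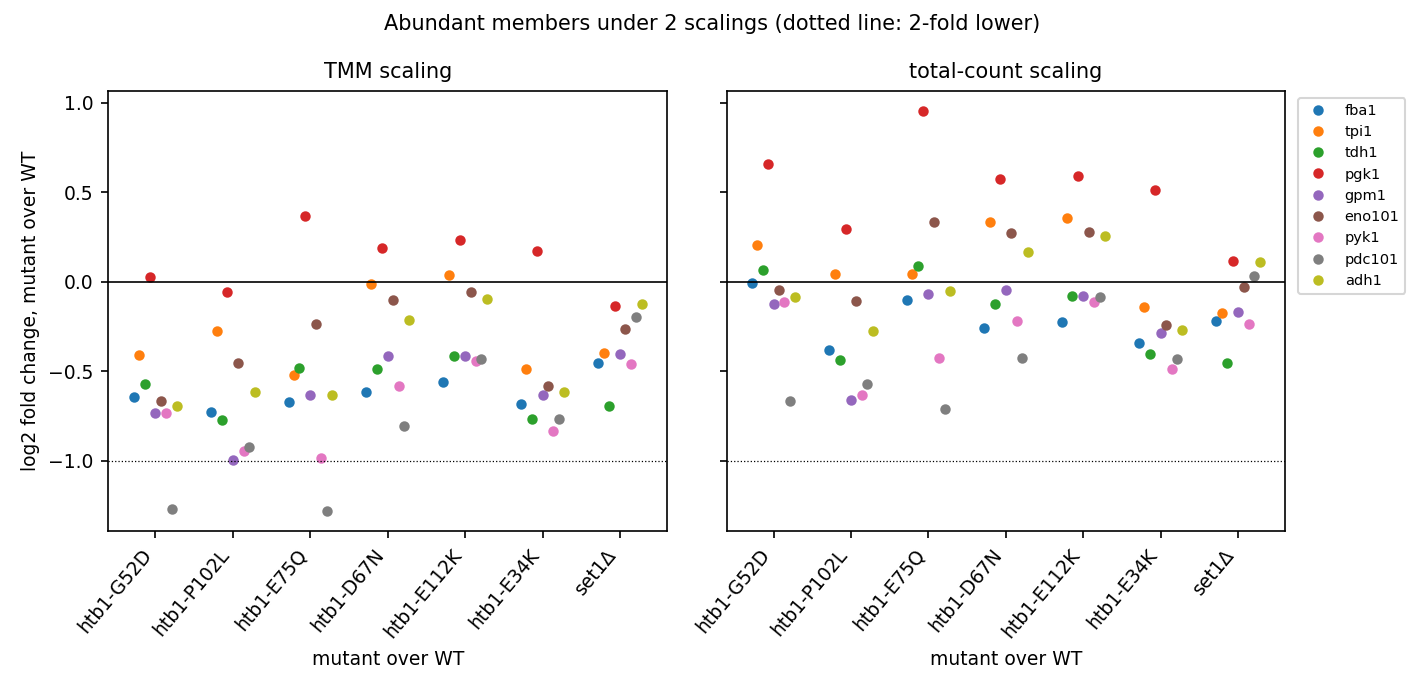
Log2 fold change, mutant over WT, of the 9 most abundant members other than gpd3, with TMM scaling (left) and total-count scaling (right); each point is 1 gene in 1 comparison. Most points lie between -1 and 0 on the left and spread about 0 on the right, with pdc101 the lowest point in htb1-G52D and htb1-E75Q and pgk1 the highest in 6 of the 7 mutants on the left and in all 7 on the right.

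Gpd3 is the other glyceraldehyde-3-phosphate dehydrogenase gene, of the same reaction as tdh1. It had 5407, 9596 and 7689.5 CPM in htb1-E112K, 10250.0, 9886 and 6784 in htb1-D67N, 1242, 509 and 842 in htb1-E75Q, 1634, 1038 and 1147 in htb1-P102L, 1395, 3045 and 2273 in htb1-G52D, 747, 693 and 1516 in htb1-E34K, 931, 1019 and 1106 in set1Δ, against 365, 402 and 1214 in WT. All libraries of htb1-D67N and htb1-E112K lay above every library of the other genotypes, and WT replicate 3 lay far above the other two WT libraries. Gpd3 was 14.2-fold higher in htb1-D67N than in WT (log2 fold change 3.83, SE 0.47, adjusted p = 0.000167) and 11.7-fold higher in htb1-E112K (3.55, SE 0.48, adjusted p = 0.000647). It was called at 1.76 (SE 0.47, adjusted p = 0.0135) in htb1-G52D. The values were 0.38 in htb1-E75Q, 0.97 in htb1-P102L, 0.61 in htb1-E34K and 0.70 in set1Δ, none called.

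The third WT library decided much of this. Without it gpd3 was called also in htb1-P102L (1.75), htb1-E75Q (1.17) and set1Δ (1.47), and the changes were 4.61 in htb1-D67N, 4.32 in htb1-E112K and 2.54 in htb1-G52D. Without WT replicate 1 or 2 in its place, the htb1-G52D call was lost at adjusted p = 0.0604 and 0.0683. Set against other mutants in the 24-library fit, gpd3 was higher in htb1-D67N than in htb1-G52D, with htb1-G52D over htb1-D67N at -2.004 (adjusted p = 0.0016), and the same contrast with htb1-E112K was -1.76 (adjusted p = 0.0038). Htb1-D67N and htb1-E112K did not differ beyond their spread (0.25, adjusted p = 0.81).

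As a share of the FPKM of both genes, gpd3 made up 19.1%, 20.6% and 24.2% in htb1-D67N, 18.4%, 16.1% and 17.6% in htb1-E112K, 5.75%, 6.81% and 5.86% in htb1-G52D, against 0.63%, 0.66% and 3.67% in WT. This share does not depend on the scaling between libraries. It was 1.48% to 4.497% in htb1-E75Q, 3.86% to 5.15% in htb1-P102L, 2.92% to 3.55% in htb1-E34K and 3.07% to 3.49% in set1Δ. The coding sequences of tdh1 and gpd3 are 92.98% identical in the RefSeq assembly ASM294v3, with an unbroken identical run of 203 bases. Reads from that run cannot be placed by sequence alone, so how the counting split them bears on low values of gpd3.

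The enolase gene eno102 was higher than in WT in 5 of the H2B mutants. It had 134.4, 110.5 and 111 CPM in htb1-E112K, 76.2, 75.2 and 72.5 in htb1-D67N, 71.4, 57.7 and 59.7 in htb1-E75Q, 37.3, 55.2 and 53.5 in htb1-P102L, 47.6, 72.5 and 59.5 in htb1-G52D, 11.7, 9.52 and 9.87 in htb1-E34K, 17.0, 12.7 and 15.04 in set1Δ, against 12.3, 10.2 and 8.78 in WT. The libraries of 5 H2B mutants, between 37.3 and 134.4 CPM, did not overlap with those of htb1-E34K, set1Δ and WT. Eno102 was higher 11.6-fold in htb1-E112K (3.54, SE 0.17, adjusted p = 3.44e-06), 7.50-fold in htb1-D67N (2.91, SE 0.16), 5.996-fold in htb1-E75Q (2.58, SE 0.21), 5.74-fold in htb1-G52D (2.52, SE 0.20) and 4.75-fold in htb1-P102L (2.25, SE 0.18). The difference was 0.03 in htb1-E34K (SE 0.22, adjusted p = 0.949) and 0.58 in set1Δ (SE 0.17, adjusted p = 0.0285), where it stayed under 2-fold. No alternative processing lost any of the 5 calls, over a range of 2.12 to 3.94.

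Between mutants, eno102 was at least 2-fold higher in each of the 5 than in htb1-E34K and set1Δ. Htb1-P102L over htb1-E112K was -1.28 (adjusted p = 1.2e-05), and no other pair among the 5 differed 2-fold. The gene remained a small part of enolase. Its share of the summed FPKM with eno101 was 0.88%, 0.38% and 0.49% in htb1-E112K and at most 0.51% in the other mutants, against 0.05%, 0.03% and 0.05% in WT. In the RefSeq annotation 19 coding genes lie between eno102 and the end of chromosome II. The 2 enolase genes share 63.35% of their coding bases, with no identical run above 18 bases.

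**Figure D3:**
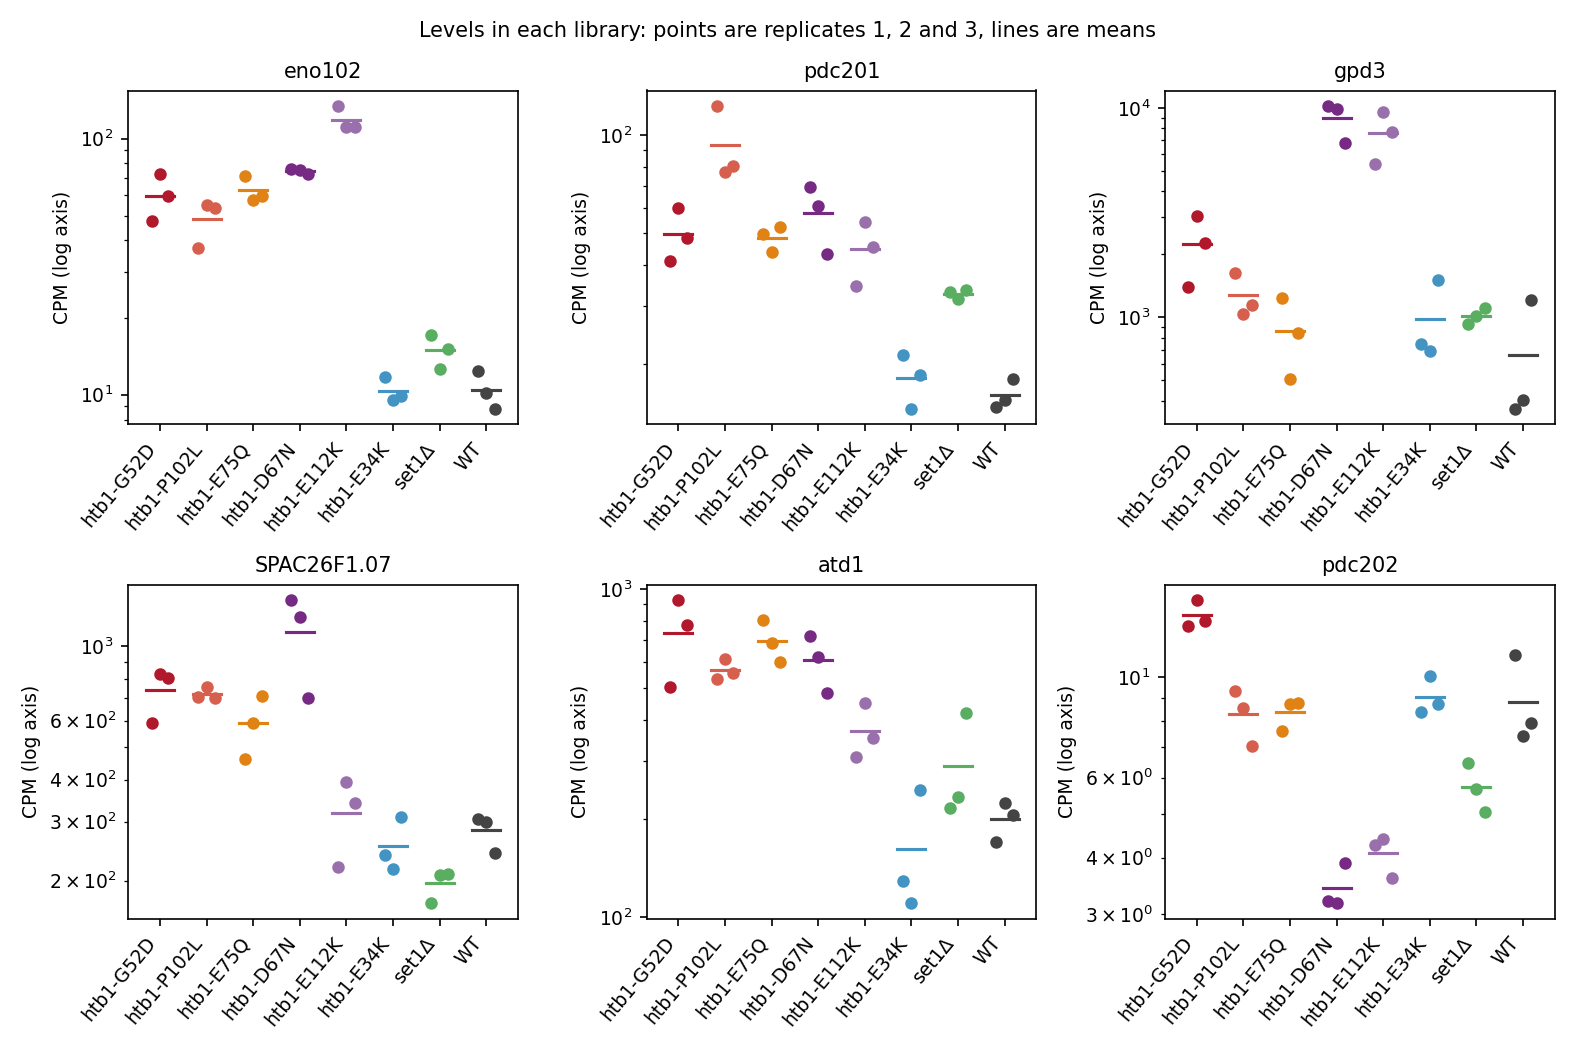
CPM on a log axis of 6 members in each library, with mutants from left and WT at the right; points are replicates 1, 2 and 3 and lines are means. Eno102 and pdc201 separate 5 H2B mutants from htb1-E34K and WT, gpd3 is highest in htb1-D67N and htb1-E112K, and WT replicate 3 is the high WT point of gpd3.

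Pyruvate decarboxylase, which opens the branch to ethanol, has 4 genes, and they moved in different directions. The main one, pdc101, had 9381, 15666 and 12873 CPM in htb1-E112K, 11207, 10485 and 7039 in htb1-D67N, 7864, 4232 and 9546 in htb1-E75Q, 11194, 8466 and 7478 in htb1-P102L, 4268, 9508 and 7967 in htb1-G52D, 6931, 8635 and 14428 in htb1-E34K, 12813, 14164 and 16826 in set1Δ, against 19191, 20267 and 12949 in WT. In htb1-G52D, htb1-P102L, htb1-E75Q and htb1-D67N every library lay below the lowest WT library. It fell by 1.27 on the log2 scale in htb1-G52D (SE 0.35, adjusted p = 0.0163) and by 1.28 in htb1-E75Q (SE 0.41, adjusted p = 0.0259). Both calls were lost with total-count scaling, at -0.66 and -0.71, and without WT replicate 1 (adjusted p = 0.0708 and 0.112) or WT replicate 2 (adjusted p = 0.0812 and 0.118). They were also lost without htb1-G52D replicate 3 (adjusted p = 0.0595), and in htb1-E75Q without replicate 1 (adjusted p = 0.0731) or replicate 2 (-0.98), and with the replicate number as a block (adjusted p = 0.0828).

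Pdc201 went the other way. It had 34.4, 54.2 and 45.3 CPM in htb1-E112K, 69.3, 60.7 and 43.1 in htb1-D67N, 49.7, 43.8 and 52.2 in htb1-E75Q, 123, 77.3 and 80.3 in htb1-P102L, 41.2, 60.0 and 48.4 in htb1-G52D, 21.3, 14.5 and 18.4 in htb1-E34K, 33.1, 31.5 and 33.6 in set1Δ, against 14.7, 15.5 and 17.9 in WT. All libraries of the 5 H2B mutants and of set1Δ lay above the highest WT library, and those of htb1-E34K overlapped WT. It was the only member called in 6 comparisons, 5.92-fold higher in htb1-P102L (2.57, SE 0.20, adjusted p = 3.66e-06), 3.76-fold in htb1-D67N (1.91, SE 0.18), 3.10-fold in htb1-G52D (1.63, SE 0.17), 3.01-fold in htb1-E75Q (1.59, SE 0.19), 2.84-fold in htb1-E112K (1.51, SE 0.18) and 2.14-fold in the libraries labelled set1Δ (1.09, SE 0.11, adjusted p = 0.000111). Htb1-E34K stood at 0.21 (SE 0.21, adjusted p = 0.602). All 6 calls held under each alternative, at 1.02 to 2.88.

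Htb1-P102L was the highest group for pdc201. Over htb1-E112K it stood at 1.066 (adjusted p = 0.00053) and over set1Δ at 1.51 (adjusted p = 1.5e-05), while its differences from htb1-G52D, htb1-E75Q and htb1-D67N, of 0.70 to 0.94, passed the test but not 2-fold. As a share of the FPKM of the 4 genes, pdc201 reached 0.82%, 0.68% and 0.80% in htb1-P102L, against 0.06%, 0.06% and 0.10% in WT. Pdc101 thus stayed the bulk of the transcript.

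Pdc202 was low everywhere. It had 4.27, 4.40 and 3.60 CPM in htb1-E112K, 3.21, 3.17 and 3.89 in htb1-D67N, 7.61, 8.74 and 8.75 in htb1-E75Q, 9.30, 8.52 and 7.05 in htb1-P102L, 12.9, 14.8 and 13.3 in htb1-G52D, 8.37, 10.03 and 8.71 in htb1-E34K, 6.45, 5.66 and 5.04 in set1Δ, against 11.2, 7.42 and 7.91 in WT. Its libraries in htb1-D67N and htb1-E112K lay below all others. It fell by 1.29 on the log2 scale in htb1-D67N (SE 0.23, adjusted p = 0.00176) and by 1.08 in htb1-E112K (SE 0.20, adjusted p = 0.004). With total-count scaling these were -0.86 (adjusted p = 0.0922) and -0.70 (adjusted p = 0.0955), and without WT replicate 1 or htb1-E112K replicate 3 the htb1-E112K value was -0.88 and -0.99, under 2-fold. Between mutants, htb1-G52D over htb1-D67N was 1.99 (adjusted p = 1.4e-07). The fourth gene, pdc102, was called nowhere in the main fits, and its WT libraries spread over 147, 2 and 69 counts. It was called lower in htb1-P102L without WT replicate 2 (-1.50). Without WT replicate 1 it was called higher in htb1-E112K (2.43) and set1Δ (2.55). Limma on log2(FPKM + 1) also called it higher in both, and the replicate block did so in set1Δ.

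Pyruvate can instead enter mitochondria through the pyruvate dehydrogenase complex. Its 4 genes pda1 and pdb1 (the E1 subunits), lat1 (acetyltransferase) and dld1 (lipoamide dehydrogenase) were called in no comparison. Their log2 fold changes lay between -0.43 (pdb1 in htb1-D67N) and 0.51 (pda1 in set1Δ). Dld1 in htb1-G52D was called higher only with total-count scaling (1.025) and limma on log2(FPKM + 1) (1.016).

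Of the enzymes that reduce or oxidise aldehydes, 2 rose in 4 H2B mutants. SPAC26F1.07, annotated with the alcohol dehydrogenase (NADP+) orthology K00002, had 220.0, 394 and 340.4 CPM in htb1-E112K, 1375, 1222 and 703 in htb1-D67N, 462, 592 and 712 in htb1-E75Q, 707, 757 and 702 in htb1-P102L, 589, 826 and 806 in htb1-G52D, 239, 216 and 309 in htb1-E34K, 171, 208 and 209.7 in set1Δ, against 306, 299.6 and 242 in WT. The libraries of htb1-G52D, htb1-P102L, htb1-E75Q and htb1-D67N all lay above those of WT. It was higher by 2.02 in htb1-D67N (SE 0.25, adjusted p = 0.000177), 1.39 in htb1-G52D (SE 0.20), 1.38 in htb1-P102L (SE 0.15) and 1.05 in htb1-E75Q (SE 0.26, adjusted p = 0.00794). The htb1-E75Q value dropped under 2-fold without WT replicate 3 (0.95) or htb1-E75Q replicate 3 (0.90). In htb1-E112K it was 0.21 (SE 0.21, adjusted p = 0.502), and htb1-D67N over htb1-E112K was 1.79 (adjusted p = 9.6e-05), so these mutants, whose gpd3 levels did not differ beyond their spread, differed here.

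Atd1, an aldehyde dehydrogenase gene, had 309, 451 and 351 CPM in htb1-E112K, 719, 621 and 483 in htb1-D67N, 805, 689 and 601 in htb1-E75Q, 531, 613 and 557 in htb1-P102L, 505, 929 and 779.6 in htb1-G52D, 129.3, 110.2 and 244 in htb1-E34K, 215, 232 and 419 in set1Δ, against 169, 223 and 204 in WT. All libraries of the same 4 mutants and of htb1-E112K lay above the highest WT library. It was higher by 1.89 in htb1-G52D (SE 0.24, adjusted p = 0.000371), 1.80 in htb1-E75Q (SE 0.26), 1.68 in htb1-D67N (SE 0.19) and 1.54 in htb1-P102L (SE 0.16). In htb1-E112K it stood at 0.93 (SE 0.18, adjusted p = 0.00491), just under 2-fold, and in htb1-E34K at -0.27 (SE 0.30). The difference of htb1-G52D over htb1-E112K was 0.995 (adjusted p = 0.013).

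The formaldehyde dehydrogenase orthologues fmd1 and fmd3, the aldehyde dehydrogenase gene atd2 and the acetyl-CoA synthetase gene acs1 were called nowhere, between -0.84 (acs1 in htb1-D67N) and 0.75 (atd2 in htb1-E112K). Atd2 in htb1-E112K was called higher only with total-count scaling (1.096). The lactate dehydrogenase gene SPAC186.08c was near the limit of detection. It had 21, 25 and 21 counts in htb1-E112K, against 1, 0 and 1 in WT. The gene passed the filter through these htb1-E112K counts, so no ratio or interval is drawn from them. In the other mutants it had 0 to 12 counts and did not pass the filter. It is the neighbour of pdc102 near an end of chromosome I, with 9 coding genes beyond it.

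Isozyme shares were tested for the 14 members that share an orthology number with another member. An exact permutation test of 3 against 3 libraries cannot go below p = 0.1 (two-sided), and the smallest of the 98 adjusted p was 0.166, so no share passed. The 3 and 3 shares did not overlap for 11 of 14 genes in htb1-E112K, 8 in htb1-D67N, 7 in htb1-E75Q, 9 in htb1-P102L, 11 in htb1-G52D, 2 in htb1-E34K and 11 in set1Δ. Over all 465 genes that share an orthology number, 48.8%, 48.0%, 46.9%, 51.8%, 52.9%, 23.0% and 48.4% did not overlap in the same comparisons. The shares of 2 genes of 1 pair mirror each other and are not separate results. Among hexokinases, hxk1 made up 42.2%, 38.2% and 35.6% in htb1-G52D, against 22.2%, 21.4% and 27.6% in WT.

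**Figure D4:**
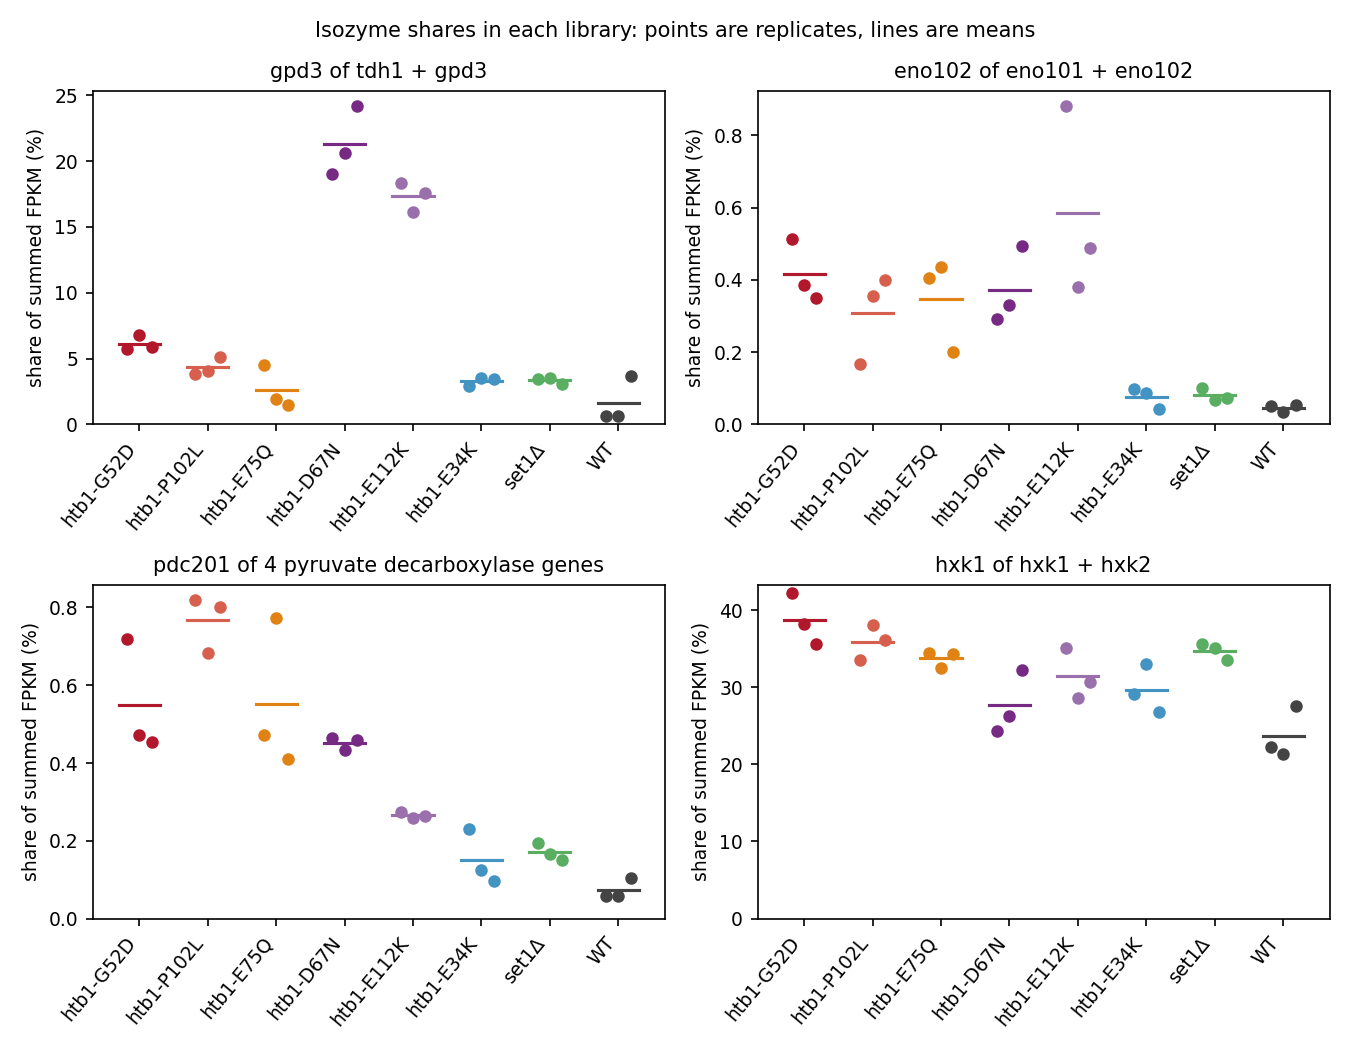
Share of the summed FPKM of a reaction's genes held by gpd3, eno102, pdc201 and hxk1 in each library, with mutants from left and WT at the right; points are replicates and lines are means. Gpd3 reaches 24.2% in htb1-D67N, while eno102 and pdc201 stay below 1% in every library.

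Across the 8 genotypes, 12 of the 30 members other than SPAC186.08c varied in the one-way edgeR test at an adjusted p below 0.05, beside 68.8% of all 5030 genes tested. They were eno102, pdc201, gpd3, pdc202, SPAC26F1.07, atd1, SPBC32F12.10, SPCC1840.05c, pdc101, pdc102, fmd3 and acs1. No call was made for fba1, tpi1, tdh1, pgk1, gpm1, eno101, pyk1 or adh1. With total-count scaling 26 of the 31 members varied, beside 47.7% of all genes, so the count turns with the scaling and nothing is read from it. In the 21 contrasts between mutants there were 68 calls among 630 pairs of one of these 30 members and a contrast, which is 10.8%, beside 9.47% of such pairs over all genes. Of these gpd3 held 13, eno102 and SPAC26F1.07 11 each and pdc202 9.

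Other genes of carbon metabolism were counted in the same fits. Fbp1, left out of the members, was higher in htb1-P102L (3.33, SE 0.25), htb1-E75Q (2.97, SE 0.25), htb1-G52D (2.42, SE 0.23), htb1-D67N (1.95, SE 0.23) and set1Δ (1.22, SE 0.23). Of 15 further genes of the pentose phosphate pathway, which makes NADPH, 1 rose and 0 fell in htb1-E112K (all genes 7.96% and 2.34%). In htb1-D67N these were 4 and 0 (10.8% and 4.48%), and in htb1-E75Q 3 and 2 (13.0% and 8.48%). In htb1-P102L they were 3 and 1 (9.93% and 3.48%), and in htb1-G52D 3 and 1 (13.4% and 8.07%). In htb1-E34K they were 0 and 0 (0.103% and 0%), and in set1Δ 0 and 1 (5.16% and 1.30%). One that rose was the glucose-6-phosphate dehydrogenase gene zwf1, in htb1-D67N (1.52, SE 0.17) and htb1-G52D (1.14, SE 0.17). One that fell was SPCC1620.06c, in htb1-E75Q (-1.45, SE 0.24) and htb1-G52D (-1.09, SE 0.16). Of 18 citrate cycle genes, 4 rose in htb1-D67N (all genes 10.8%), 1 rose in htb1-E75Q (13.0%) and 1 fell in htb1-G52D (8.07%). None was called in the other 4 comparisons. The 4 that rose in htb1-D67N included the citrate synthase gene cit1 (1.16, SE 0.17).

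Genes that glucose represses and stress genes were counted in the same fits, from lists chosen with earlier results of these data known. Of 7 genes listed as repressed by glucose, fbp1 among them, 3 were higher in htb1-E112K (all genes 7.96%) and 6 in htb1-D67N (10.8%). In htb1-E75Q 5 were higher (13.0%), in htb1-P102L 4 (9.93%) and in htb1-G52D 4 (13.4%). In htb1-E34K 0 were higher (0.103%), in set1Δ 1 (5.16%), and none was lower in any. Ght3, a gene of the hexose transporter family, passed the filter only in htb1-D67N, htb1-E112K and htb1-P102L, where it was called higher. It is in the counts there, but its fold changes are not read. The other 4 comparisons tested 6 of the 7 genes. Inv1, the invertase gene, rose by 3.91 in htb1-E75Q (SE 0.32). Of 10 stress genes, 10 were higher in each of htb1-E75Q (all genes 13.0%), htb1-P102L (9.93%) and htb1-G52D (13.4%). Of the same genes 6 were higher in htb1-E112K (7.96%), 7 in htb1-D67N (10.8%) and 0 in htb1-E34K (0.103%), while 3 were lower in set1Δ (1.30%). Their part in the changes of the members was not tested.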

How the data were processed

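Poly(A) RNA of 24 yeast cultures was sequenced on an Illumina HiSeq instrument. The authors filtered reads with fastp, removed rRNA reads with Bowtie2, aligned to Ensembl release 45 with HISAT2 and deposited, for each gene and library, a read count and an FPKM value from StringTie. RSEM and DESeq2 are also named in the submitters' processing notes, without versions. Each of 7 tables paired a mutant with WT, and the repeated WT columns were identical. The authors' own fold changes and p-values, and 7 tables restricted by them, were not used.

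Counts of 5195 genes (18935513 to 28181070 per library, which limits precision only for the weakest members) were filtered with filterByExpr, scaled by TMM and tested, mutant against WT, in edgeR 4.0.16 by the quasi-likelihood test with Benjamini-Hochberg adjustment over all genes tested. A 24-library fit gave the one-way test and the contrasts between mutants. Isozyme shares used the deposited FPKM and exact permutation tests (SciPy 1.17.1 and NumPy 2.4.6 in Python 3.11.15). Alternatives were DESeq2 1.42.0, total-count scaling, other count filters, the replicate number as a block, a joint fit of the 24 libraries, limma 3.58.1 on log2(FPKM + 1) and leaving out libraries. Checked on simulated counts with 200 genes changed at log2 fold 2, the edgeR step recovered 97.0% (htb1-E34K) to 99.5% (htb1-D67N) of them.

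Levels in every library are given for each member called in at least 1 comparison and for the 10 members with the highest mean FPKM, and the others by counts and ranges. Members and gene lists were chosen with earlier results of these data known. Samples with the same replicate number deviated together from their group means in htb1-D67N and WT (correlations 0.185 to 0.375). But htb1-D67N replicate 1 correlated more with WT replicate 2 (0.24) than with WT replicate 1 (0.185). Pairing by number was therefore not established, and the main fits used none. In no other comparison did all 3 pairs exceed 0.1. Cultures were described as independent, and the strand used in counting is not stated. Annotated overlaps, neighbours and coding identity come from RefSeq ASM294v3, which was not shown to be the authors' build, so no coordinates or sequences are given.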

Additional observations from a re-analysis of the deposited data

How the results depend on the processing

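Of the 27 calls among the members tested in every comparison, 20 held under every alternative run and none changed sign. The other 7 were lost under at least 1: both calls of pdc101, both of pdc202 and that of pfk1 under total-count scaling and limma on log2(FPKM + 1), gpd3 in htb1-G52D without WT replicate 1 or 2, and SPAC26F1.07 in htb1-E75Q without WT replicate 3 or htb1-E75Q replicate 3. Total-count scaling turned the split of higher and lower calls to 6 and 0 in htb1-E112K, 7 and 0 in htb1-D67N, 4 and 0 in htb1-E75Q, 5 and 0 in htb1-P102L and 8 and 0 in htb1-G52D, against 4 and 1, 5 and 1, 4 and 1, 4 and 0, and 5 and 2 under TMM. Over all genes that scaling called 15.2% higher and 0.570% lower in htb1-E112K, 18.1% and 0.987% in htb1-D67N, 28.5% and 1.42% in htb1-E75Q, 17.8% and 1.48% in htb1-P102L, and 33.9% and 1.12% in htb1-G52D, since by its construction it moves all genes of a comparison together. The number of members varying among genotypes was 26 with total-count scaling, beside 47.7% of all genes, and 13 under TMM. These counts and those below include SPAC186.08c in htb1-E112K, which passed the filter only through that mutant. Without it the TMM split there was 3 and 1, and 12 members varied among genotypes. Nothing is read from the other htb1-E112K counts of this paragraph. Leaving out 1 library at a time gave 4 to 7 called members in htb1-E112K, 6 to 6 in htb1-D67N, 4 to 7 in htb1-E75Q, 4 to 8 in htb1-P102L, 5 to 8 in htb1-G52D, 0 to 2 in htb1-E34K and 1 to 2 in set1Δ. Of all genes those fits called 8.69% to 11% in htb1-E112K, 14% to 15.9% in htb1-D67N and 16.9% to 24.8% in htb1-E75Q. They called 12.8% to 13.8% in htb1-P102L, 18.4% to 24.1% in htb1-G52D, 0% to 1.59% in htb1-E34K and 5.44% to 7.14% in set1Δ. In htb1-E75Q the value of 7, with pyk1, pfk1 and fba1 added as lower, came without htb1-E75Q replicate 3. That was 23.3% of the members, beside 24.8% of all genes. In htb1-P102L the value of 8 came without WT replicate 3 (all genes 13.5%) and without htb1-P102L replicate 1 (13.7%). Without both libraries that hold ura4 counts 11 members were called, beside 14.5% of all genes. In htb1-E34K the value of 2 (pyk1 and pfk1, both lower) came without htb1-E34K replicate 3, beside 1.59% of all genes. There limma on log2(FPKM + 1) called 1 (gpd3), beside 2.53%. In set1Δ the limma fit and the fit with the replicate block called 2, pdc102 being added in both, and so did leaving out WT replicate 1 (pdc102) or WT replicate 3 (gpd3). Of all genes these fits called 3.82%, 6.73%, 6.96% and 7.14% in that order. The cause of these differences was not tested. With the replicate block the counts were 5, 6, 4, 6, 7, 0 and 2 for htb1-E112K, htb1-D67N, htb1-E75Q, htb1-P102L, htb1-G52D, htb1-E34K and set1Δ. Of all genes the block fits called 15.6% in htb1-D67N, 21.8% in htb1-E75Q and 13.6% in htb1-P102L. They called 20.6% in htb1-G52D, 0.843% in htb1-E34K and 6.73% in set1Δ. The htb1-E112K count includes SPAC186.08c and is not read. Outside htb1-D67N the samples share only a number. The count of isozyme shares without overlap was 59 of 98, and 59 with shares of counts in place of FPKM.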
